A study of Homo sapiens with 16 samples.

Results

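The comparison describes where BORIS lay relative to cohesin in TC-71 cells, and what the chromatin looked like where BORIS lay without it. TC-71 is an established Ewing sarcoma line that the labels place after chemotherapy, and it stands here as a single line. Chromatin immunoprecipitation with sequencing was done on formaldehyde-crosslinked, sonicated chromatin, with 2 samples each for BORIS, SMC1 and H3K27ac and 2 of input. TC-32, a line labelled as taken at diagnosis, was treated the same way and serves below only as a second SMC1 list. Members were all 534 distinct TC-71 BORIS intervals on chromosomes 1 to 22 and X, out of 114213 intervals in the 6 lists of the series, and they were set against the 18264 TC-71 SMC1 intervals. Both samples of an antibody share a list, so no value has a replicate error. The 95% intervals given are exact for shares (Clopper-Pearson) and medians (order statistics), and approximate for Spearman's rho (Fisher's z). They cover counting error over sites only. Depth is unknown from the lists, and the amount of BORIS in the cells was not analysed here.

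BORIS, also named CTCFL, is a paralog of CTCF that shares its zinc finger domain and is normally made in the male germ line. Cancer cells can switch it on. Cohesin is a ring-shaped complex that includes SMC1. It extrudes chromatin loops and halts where CTCF is bound, so that cohesin peaks sit beside CTCF sites in most cell types. CTCF holds cohesin through its amino-terminal part, which BORIS does not share, and BORIS has been studied as a protein that can occupy CTCF sites without the same hold on cohesin. H3K27ac, an acetylated histone, labels active promoters and enhancers.

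A BORIS interval met cohesin at 342 of 534 sites (64.0%, 59.8 to 68.1%), and these were 1.87% of the SMC1 list. The relation was strictly single: 0 BORIS intervals met more than 1 SMC1 interval, and 0 SMC1 intervals held more than 1 BORIS interval. At cohesin the median BORIS interval spanned 118 bp (114 to 124), and the median SMC1 interval under it 201 bp (193 to 210). In 244 cases (71.3%, 66.2 to 76.1%) the BORIS interval lay wholly inside the SMC1 interval. In a further 15 it covered the whole SMC1 interval, and in 83 the intervals overlapped in part. The median BORIS interval was covered in full, the 10th percentile of coverage was 84.0%, and the smallest overlap covered 45.8%. The BORIS summit, the base that the list gives as the top of the peak, fell inside the SMC1 interval at 341 of the 342 sites. Overlap by the edges alone was rare.

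The signed distance between summits, BORIS minus SMC1 on the forward strand, centred on 0. Its median was 1.5 bp (-2 to 4), its quartiles were -16 and 15 bp, and its extremes were -332 and 261 bp. BORIS lay on the higher-coordinate side at 175 sites, on the lower side at 160 and on the same base at 7, and the interval of the higher share covers an even split (52.2% of the nonzero values, 46.7 to 57.7%). The strand of the underlying motif was not used here, so sides are those of the genome and not of a motif. Without sign, the median distance was 16 bp (13 to 18). The summits were within 5 bp at 62 sites (18.1%, 14.2 to 22.6%), within 10 bp at 126 (36.8%, 31.7 to 42.2%), within 20 bp at 218 (63.7%, 58.4 to 68.8%) and within 100 bp at 334 (97.7%, 95.4 to 98.98%).

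The summit of cohesin itself provides a yardstick for these distances. At 314 of the 342 SMC1 intervals with BORIS, SMC1 was listed in TC-32 as well (91.8%, 88.4 to 94.5%, against 90.3% of all TC-71 SMC1 intervals). There the SMC1 summits of the lines were a median of 9 bp apart (8 to 11), and 34.7% (29.5 to 40.3%) were within 5 bp. By the median, BORIS and SMC1 summits in the same cells were therefore farther apart than SMC1 summits in different cells, with intervals that do not overlap. How precisely each list places its summits was not tested. Beyond 100 bp the shares were 2.34% (1.02 to 4.56%) and 2.87% (1.32 to 5.37%), with intervals that overlap. The shares differed most close to 0: the range from -3 to 3 bp held 11.7% of BORIS to SMC1 distances and 24.8% of the distances between lines. From 11 to 30 bp the shares were 42.1% (36.8 to 47.5%) and 37.3% (31.9 to 42.9%). BORIS lay at a like distance from the cohesin summit of either line: at the 312 BORIS intervals that overlap SMC1 in both lines, the median distance was 15.5 bp (13 to 18) to the TC-71 summit and 14.5 bp (13 to 18) to the TC-32 summit. BORIS lay on the same side of both SMC1 summits at 239 of the 302 sites where neither distance was 0 (79.1%, 74.1 to 83.6%). The medians and the sides use the same BORIS summits for both lines. The distance to the TC-71 summit had no steady order with BORIS strength: from the lowest to the highest quartile of the BORIS list by −log10 q (the significance of a peak over input, higher for stronger peaks) its median was 15.5, 14.5, 14.5 and 18 bp.

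**Figure D1:**
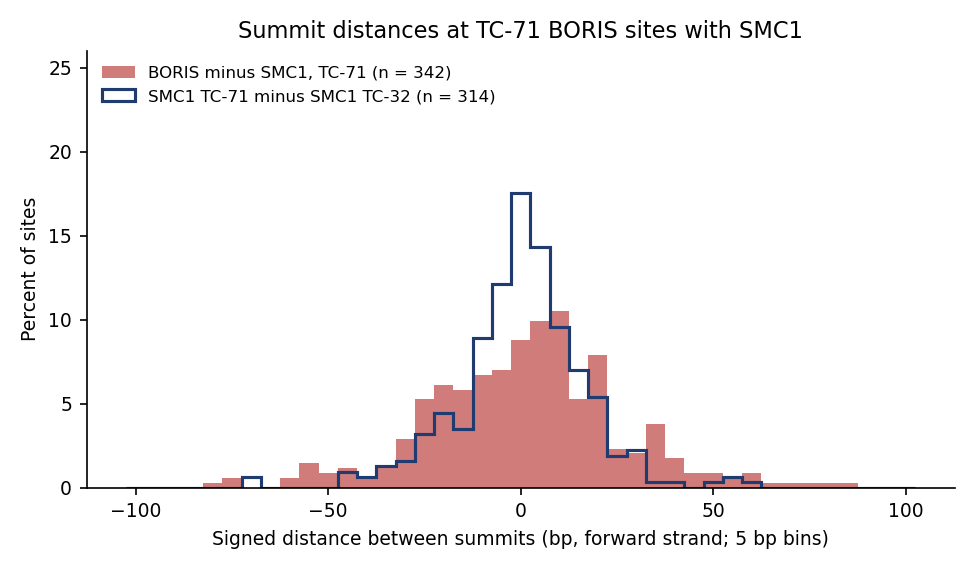
Percent of sites (vertical axis) by signed distance between summits in bp (horizontal axis, 5 bp bins, values beyond about 100 bp not drawn). Filled bars are BORIS minus SMC1 in TC-71 at 342 sites, and the line is SMC1 of TC-71 minus SMC1 of TC-32 at the 314 of these cohesin sites listed in both lines; both centre on 0 and the bars are lower and broader, with medians of 16 and 9 bp without sign.

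Large distances were few and lay mostly in intervals with several summits. Of the 8 sites beyond 100 bp, 6 had more than 1 listed summit in the BORIS or the SMC1 interval, against 20 such sites among all 342. The widest separation was at 19p13.3 (chr19:246898-246990 in build hg19, used throughout), where a BORIS summit with a fold enrichment over input of 7.87 lay 332 bp below the higher summit of a cohesin interval at 246861 to 247440. At 16p13.3 (chr16:2390663-2391088) a BORIS interval of 426 bp had its higher summit 268 bp below a strong SMC1 summit, with a fold of 17.8. On the other side, a BORIS summit at 2p23.3 (chr2:24307546-24307689) lay 261 bp above its SMC1 summit. Restricting the measure to the 322 sites with a single summit in each interval gave a median of 15 bp (13 to 17).

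Within TC-71 the rank of BORIS showed little relation to the rank of the cohesin it sat on. Ranked by −log10 q within each list, where the SMC1 percentile runs to 100 at the strongest peak, Spearman's rho over the 342 sites was -0.00658. The 2 lists were called against the same TC-71 input, so their values share a background estimate. BORIS sites above the median of the BORIS list had an SMC1 peak above the median of the SMC1 list in 87 of 157 cases (55.4%, 47.3 to 63.3%). For sites below the BORIS median it was 105 of 185 (56.8%, 49.3 to 64.0%). From the lowest to the highest BORIS quartile the median SMC1 percentile was 53.8, 61.9, 58.9 and 53.5, with intervals that all overlap. With the SMC1 list of TC-32 in place of that of TC-71, the rank rho was -0.144 (-0.240 to -0.0464) over 395 overlapping sites. At the 312 of these with cohesin in both lines it was -0.0477 with SMC1 of TC-32 and 0.0225 with SMC1 of TC-71.

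Fold enrichment of the proteins was weakly related. Its rho over the 342 sites was 0.188, and the median SMC1 fold along the BORIS fold quartiles went from 5.59 (5.05 to 5.99) through 6.41 (5.83 to 7.14) and 6.70 (5.58 to 7.48) to 7.22 (5.76 to 8.04), with outer intervals that overlap. At the 312 sites with cohesin in both lines the rho of BORIS fold was 0.233 with SMC1 of TC-71 and 0.0172 with SMC1 of TC-32, which has its own input. Over all 395 BORIS sites that overlap SMC1 of TC-32 the fold rho was -0.0738 (-0.171 to 0.0251), an interval that includes 0. Its sign was opposite to that within TC-71, where the interval was 0.0832 to 0.288. For comparison, the SMC1 folds of the 2 lines had a rho of 0.574 with each other at the same sites. The part of the shared input in the value within TC-71 was not tested. These are descriptions across sites, which are not independent replicates.

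**Figure D2:**
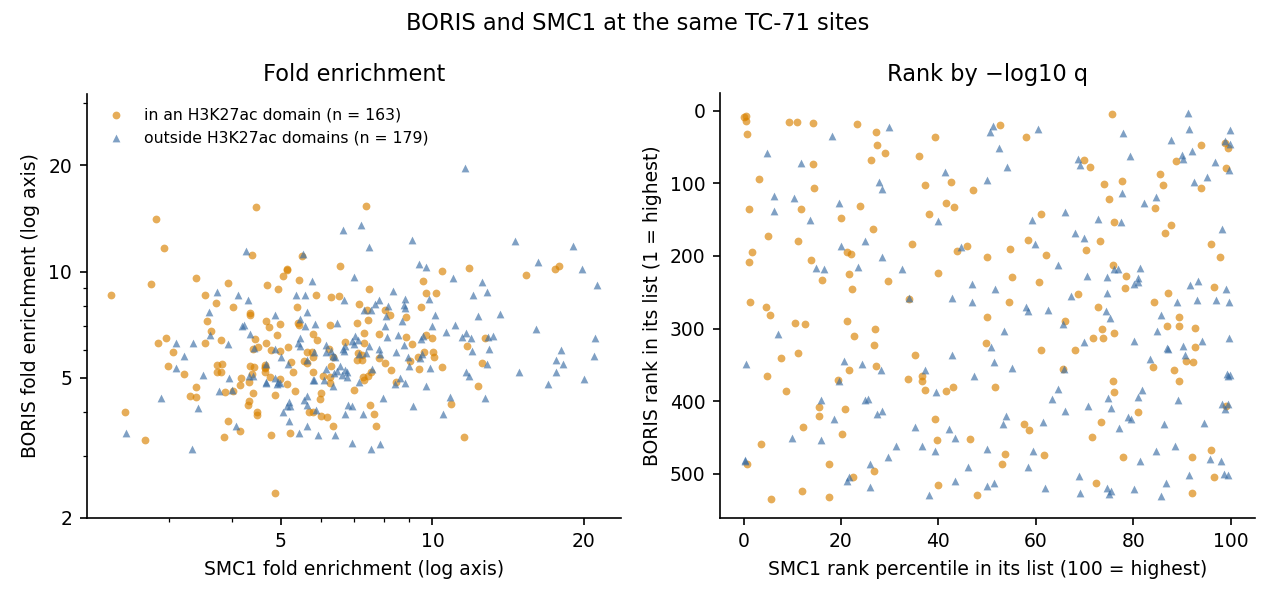
Each point is 1 of the 342 TC-71 sites where BORIS and SMC1 overlap, marked by whether the BORIS interval lies in an H3K27ac domain (163) or outside (179). Left, fold enrichment of SMC1 and BORIS on log axes (rho 0.188); right, SMC1 rank percentile and BORIS rank by −log10 q (rho -0.00658), where points fill the plot and a small group at top left pairs high BORIS ranks with low SMC1 percentiles.

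The ends of the rank order are given as descriptions of 10 sites each. Among the 10 strongest BORIS sites at cohesin, 7 sat on an SMC1 peak from the lowest quartile of its list, and 9 lay in an H3K27ac domain. Over all 342 sites at cohesin these counts were 77 and 163. Their BORIS folds ran from 6.28 to 19.7 with a median of 10.9, while the SMC1 folds under them ran from 2.30 to 11.6 with a median of 3.55. At 15q26.3 (chr15:102192528-102192757) BORIS had a fold of 14.1 and SMC1 a fold of 2.82. The site at 8q22.1 (chr8:95565777-95565938) paired a BORIS fold of 8.57 with the lowest SMC1 fold of the group, 2.30. At 9q34.3 (chr9:139622613-139622798) the folds were 11.7 and 2.93 and the summits lay 4 bp apart. The SMC1 percentiles of these 3 sites were 0.465, 0.151 and 0.586, at the very bottom of the list. The 3 outside the lowest SMC1 quartile were 9q34.13 (chr9:134615495-134615651), outside acetylation, with folds of 19.7 and 11.6, and 19q13.2 (chr19:39420962-39421254), acetylated, with folds of 15.3 and 7.40, together with 19q13.42 (chr19:56165062-56165295), also acetylated. The last had folds of 10.1 and 5.15 and summits 2 bp apart.

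The 10 strongest cohesin peaks with BORIS were chosen by their SMC1 −log10 q, and their SMC1 folds ran from 17.6 to 21.2. At 1 of them the BORIS interval lay in an H3K27ac domain, against 47.7% of all 342 sites. All 10 had SMC1 in TC-32, as did 9 of the 10 strongest BORIS sites and 91.2% of all 342. BORIS at these peaks was ordinary, with folds from 4.96 to 11.8 and a median of 6.11. Of the 10, 4 were in the highest BORIS quartile and 2 in the lowest, against 76 and 90 of all 342. The strongest was at 17q25.3 (chr17:78549249-78549390), the SMC1 peak of rank 4 in its whole list, with an SMC1 fold of 21.2 and a BORIS fold of 9.15. At 9q33.2 (chr9:124082489-124082595) the SMC1 peak of rank 7 had a fold of 20.9 and BORIS one of 5.74. The site at 11q24.3 (chr11:129234160-129234271) had folds of 21.04 for SMC1 and 6.48 for BORIS, with summits 2 bp apart. At 6q24.2 (chr6:144803422-144803506) an SMC1 peak at percentile 99.4 carried a weak BORIS peak, with a −log10 q of 3.69. Summit distances in this group stayed between 2 and 44 bp.

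Acetylation divided the cohesin that BORIS met. Where the BORIS interval shared at least 1 bp with an H3K27ac domain (163 sites, called acetylated here), the SMC1 peak had a median percentile of 45.8 (37.3 to 55.2) and a median fold of 5.50 (5.05 to 6.01). Outside such domains (179 sites) the percentile was 65.9 (58.4 to 74.6) and the fold 6.91 (6.47 to 7.54). The SMC1 values of the classes differed by more than their intervals, and the BORIS folds did not, at 5.86 (5.51 to 6.24) and 5.96 (5.68 to 6.22). Summit distances had overlapping intervals, with medians of 16 bp (12 to 19) and 14 bp (12 to 18). The rho of the folds was 0.118 in acetylated and 0.265 in other sites, and that of the ranks -0.0396 and 0.067. A lean of acetylated cohesin to low ranks was also present without BORIS. Of SMC1 peaks without BORIS, 18.0% overlapped an H3K27ac domain in the lowest SMC1 quartile and 10.9% in the highest.

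Acetylation also divided sites by whether cohesin was listed at all. Outside H3K27ac domains SMC1 was found at 80.3% (69.1 to 88.8%) of BORIS sites in the lowest BORIS quartile, 69.8% (57.0 to 80.8%) in the second, 80.8% (67.5 to 90.4%) in the third and 36 of 45 in the highest. Within domains it was found at 54.1% (40.8 to 66.9%), 65.7% (53.4 to 76.7%), 53.0% (41.7 to 64.1%) and 44.9% (34.4 to 55.9%). In the highest quartile the SMC1 peaks of acetylated sites had a median percentile of 42.0, against 73.4 at other sites. The intervals of acetylated and other sites were separate in every quartile but the second.

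Seen from the SMC1 list, BORIS was found at cohesin of every rank. Cut into 10 bins by −log10 q, the SMC1 list held BORIS at 27 of 1815 peaks in the lowest bin (1.49%, 0.983 to 2.16%) and 52 of 1825 in the highest (2.85%, 2.14 to 3.72%). The bins between ranged from 1.37% to 2.37% with no steady order, and the intervals of the end bins just overlap. SMC1 peaks with BORIS had a higher median −log10 q, at 15.9 (14.02 to 18.004) against 13.6 (13.4 to 13.8) without, and a median percentile of 57.95 (51.1 to 64.5). Their fold differed less, at 6.28 (5.83 to 6.68) against 6.16 (6.14 to 6.21), with intervals that overlap. Median widths were 201 bp and 185 bp over all ranks. From the lowest to the highest SMC1 quartile they were 150, 171, 198.5 and 252 bp with BORIS and 150, 165, 192 and 233 bp without.

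SMC1 peaks with BORIS were more often acetylated. Of the 342 SMC1 intervals with BORIS, 176 overlapped an H3K27ac domain (51.5%, 46.0 to 56.9%), against 13.6% of all TC-71 SMC1 intervals and 12.9% (12.4 to 13.4%) of those without BORIS. The gap was present at every rank. In the lowest SMC1 quartile 63.6% (51.9 to 74.3%) of peaks with BORIS and 18.0% (16.9 to 19.1%) of the others were acetylated, and in the highest quartile 43.0% (33.7 to 52.6%) and 10.9% (9.98 to 11.8%). Put the other way, BORIS lay at 176 of 2484 acetylated SMC1 peaks (7.09%, 6.11 to 8.17%) and at 166 of 15780 others (1.05%, 0.899 to 1.22%).

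**Figure D3:**
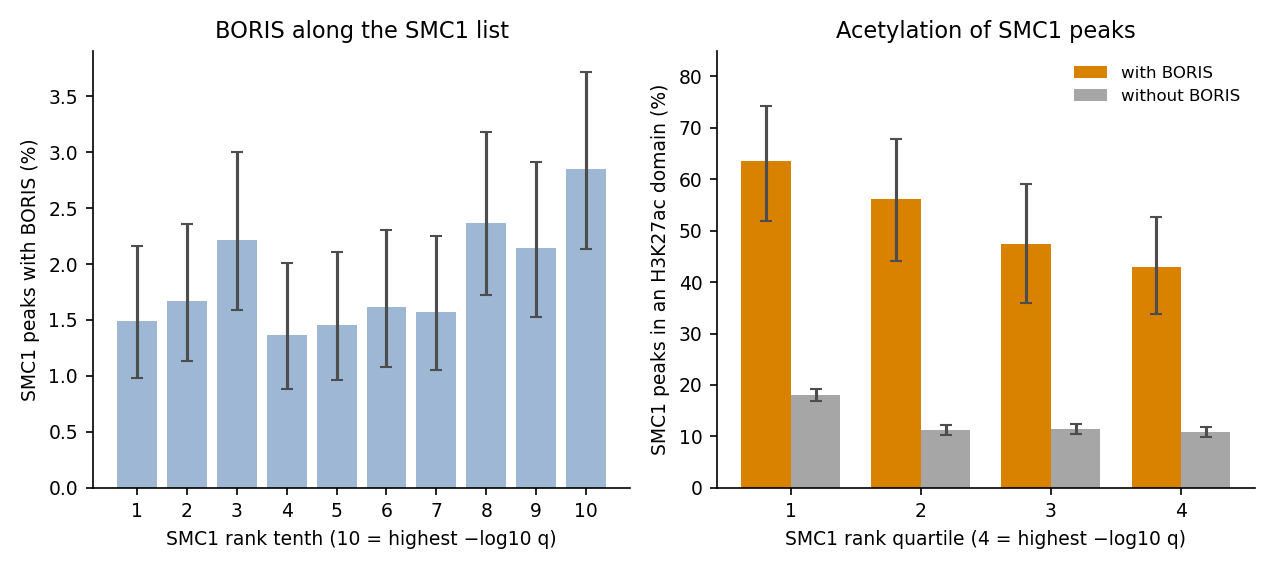
Left, percent of TC-71 SMC1 peaks that overlap a BORIS interval in 10 rank bins of the SMC1 list, lowest 1.37% and highest 2.85%. Right, percent of SMC1 peaks in an H3K27ac domain by SMC1 rank quartile, for peaks with BORIS (342) and without (17922); bars with BORIS are higher in all 4 quartiles, and error bars are exact 95% intervals.

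The remaining 192 BORIS sites had no SMC1 peak. Few had cohesin just beside them, though the share that did was above that of the lists at large, given below. From the BORIS summit to the edge of the next SMC1 interval the median was 19685 bp (15367 to 27140), with quartiles of 7262 and 52382 bp and extremes of 141 and 345582 bp. The next SMC1 peak was within 500 bp at 7 sites (3.65%, 1.48 to 7.37%), within 1 kb at 13 (6.77%, 3.65 to 11.3%) and within 10 kb at 63 (32.8%, 26.2 to 39.9%). At 21 sites (10.9%, 6.90 to 16.2%) it was more than 100 kb away. It lay on the higher-coordinate side in 105 cases (54.7%, 47.4 to 61.9%), and it held a BORIS interval of its own in 10 (5.21%, 2.53 to 9.37%). Among these 10 were sites at 14q32.33 (217 bp), 2q21.1 (231 bp), 11q13.1 (277 bp) and 12q21.31 (284 bp), all within 500 bp. The share within 1 kb therefore includes close BORIS neighbours with cohesin under only 1 of them, and it was not computed without them.

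BORIS sites with cohesin had similar gaps. For BORIS sites that had an SMC1 peak, the next other SMC1 peak was a median of 22261 bp away (19167 to 26924), which overlaps the value above, and 5.85% (3.61 to 8.89%) had it within 1 kb. Both median distances were below those of the lists at large. Over all SMC1 summits the next other peak was 35353 bp away (34603 to 36315), and for the 24007 H3K27ac domains without SMC1 the next SMC1 peak was 32169 bp from the domain centre (31470 to 32860). Within 1 kb the shares of these lists were 2.79% (2.56 to 3.04%) and 3.22% (3.00 to 3.45%). The domains were chosen to hold no SMC1, so no peak could lie between the centre and the edge of its domain. This lowers their share close by, and domain width was not matched to that of BORIS intervals. Within 10 kb the shares were 22.3% (21.7 to 22.9%) for SMC1 summits and 21.2% (20.6 to 21.7%) for the domains.

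**Figure D4:**
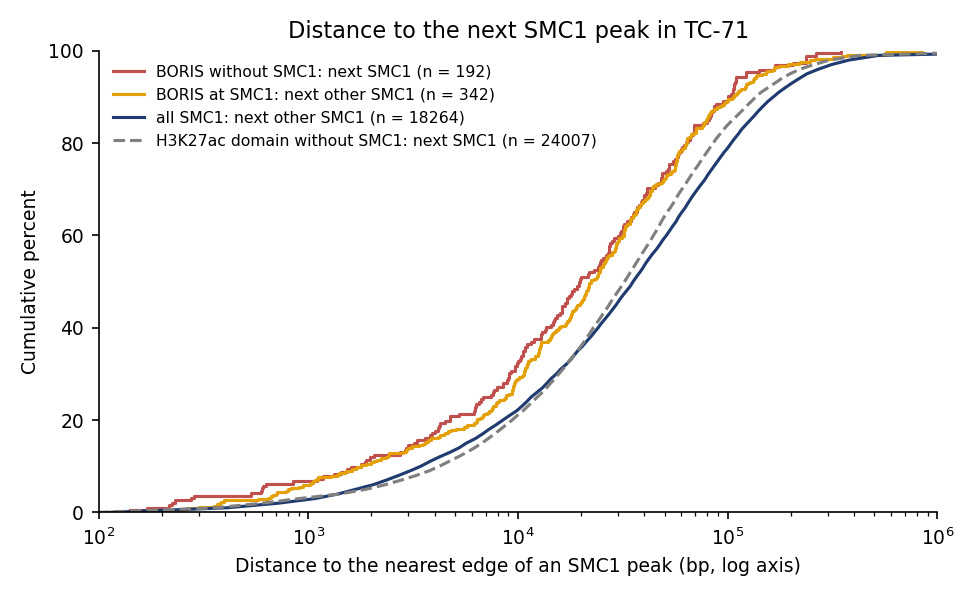
Cumulative percent of sites (vertical axis) by distance in bp to the nearest edge of an SMC1 peak (horizontal log axis). BORIS sites without SMC1 (median 19685 bp) and the next other SMC1 peak for BORIS sites at SMC1 (22261 bp) run together, to the left of all SMC1 peaks (35353 bp) and of H3K27ac domains without SMC1 (32169 bp).

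BORIS sites lacking cohesin were not the weak end of the BORIS list. Their median fold was 6.22 (5.90 to 6.67) against 5.91 (5.70 to 6.11) at cohesin, and their median −log10 q was 11.4 (9.67 to 13.6) against 9.50 (8.86 to 9.97), with intervals that overlap in both measures. They were more often acetylated, at 140 of 192 (72.9%, 66.0 to 79.1%) against 163 of 342 (47.7%, 42.3 to 53.1%). The distance to the next SMC1 peak was 23561 bp (15883 to 31476) for the acetylated sites and 16426 bp (9227 to 28041) for the 52 others, intervals that overlap. Within the group, the acetylated sites had the higher −log10 q, at 12.4 (10.7 to 14.001) against 8.39 (7.24 to 10.5), while the folds overlapped.

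Cohesin was listed in TC-32 at 83 of these 192 sites (43.2%, 36.1 to 50.6%), at nearly the same share of acetylated (43.6%, 35.2 to 52.2%) and other sites (42.3%, 28.7 to 56.8%). Those TC-32 SMC1 peaks were weak. Their median fold was 4.64 (4.22 to 5.46) and their median percentile 33.1 (26.96 to 41.8), against a fold of 8.498 (8.02 to 9.27) and a percentile of 71.7 (67.3 to 74.98) at the 312 BORIS sites with cohesin in both lines. BORIS summits of TC-71 were a median of 17 bp (14 to 25) from these TC-32 cohesin summits, close to the 16 bp within TC-71. The spread was wider: 9.64% (4.25 to 18.1%) of these distances were over 100 bp. Within TC-71 it was 2.34% (1.02 to 4.56%), and the intervals just overlap. The TC-32 SMC1 list is longer, with 32720 intervals, and sites below the threshold in the shorter TC-71 list cannot be told apart from sites without cohesin.

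Strong BORIS sites without cohesin were led by 19p13.3 (chr19:605157-605921). It is the strongest BORIS peak of the list, with 4 summits, a fold of 31.4 and the next SMC1 peak 17070 bp away. The other 9 of the 10 strongest were all acetylated, and 5 of the 10 had SMC1 in TC-32. Over all 192 sites without SMC1 in TC-71 these counts were 140 and 83. At 6p23 (chr6:13615421-13615613, fold 15.8) the next SMC1 peak was 39784 bp away, and at 16p13.3 (chr16:1756038-1756222, fold 15.8) 67126 bp. At 7q22.1 (chr7:102213023-102213211, fold 8.15) the gap was 100185 bp. The shortest gap in this group was 844 bp, at 14q11.2 (chr14:21571797-21571958, fold 11.5).

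At the near end, the 5 sites closest to a cohesin peak they did not touch were 141 to 231 bp from its edge. At 2q31.1 (chr2:171785408-171785498) the next SMC1 interval began 141 bp above the BORIS summit with a fold of 3.70, and at 10q22.1 (chr10:71168383-71168542) 170 bp above with a fold of 6.82. Separate sites at 2q21.1 (chr2:130939448-130939551 and chr2:132250261-132250442) had gaps of 224 and 231 bp to different SMC1 peaks. The SMC1 peak next to the second of them met another BORIS interval. Of the 13 sites with cohesin within 1 kb, 11 were acetylated (84.6%, 54.6 to 98.1%), an interval that includes the 72.9% of all 192 sites without SMC1. The SMC1 peaks next to these 13 had folds from 3.35 to 8.10, with a median of 4.87. The far end held 18p11.23 (chr18:7567177-7567319, fold 9.30), unacetylated yet with SMC1 in TC-32, with the next TC-71 peak 345582 bp away. It also held 6q13 (chr6:72596599-72596689) at 264712 bp and 2q37.3 (chr2:242254756-242254881) at 236716 bp. A pair at 21p11.2 completed it (chr21:9825833-9826006 and chr21:9826860-9827083). Their BORIS folds were low, at 2.59 and 3.18, while their −log10 q of 15.7 and 14.2 lay above the BORIS list median of 9.82.

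By chromosome, cohesin was found at most BORIS sites except on chromosomes 21 (3 of 7) and X (1 of 4). It ranged from 56.3% (18 of 32) on chromosome 7 to 17 of 20 on chromosome 9 among those with at least 20 sites, and the intervals of all these overlapped. In each of the 29 bands with at least 4 BORIS sites the interval of the share at SMC1 included the 64.0% of all sites. At 1p35.1 it did so only at its upper end (0.421 to 64.1%). The intervals are wide at these counts, and no band stood apart by them. The bands that follow are given for their sites only. All 5 sites at 5q35.3 had SMC1, with summits 9 to 29 bp apart. At 1p35.1 only 1 of 6 sites did, and at 7q22.1 only 1 of 5, where the BORIS peak of lowest fold in the band (5.05) lay on cohesin with a fold of 11.8. These bands, and 14q32.33 below, were picked after their values were seen.

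The 14q32.33 band, which holds the immunoglobulin heavy chain locus, had 9 BORIS sites and 8 with cohesin, of contrasting kinds. The 2 lowest by coordinate (chr14:105947317-105947401 and chr14:105957003-105957154) were acetylated, with SMC1 in TC-32, SMC1 folds of 7.53 and 5.68 and BORIS folds of 4.18 and 3.99. The other 7, from 106626915 upwards, were unacetylated and had no SMC1 in TC-32. Their SMC1 folds were low, from 2.89 to 4.86 at the 6 with a peak, and their BORIS folds ran from 4.37 to 8.73. At chr14:106765206-106765450, for example, BORIS had a fold of 8.73 and SMC1 one of 3.74, with summits 26 bp apart. At 107119920 to 107120006 BORIS lay 217 bp from an SMC1 peak that met the neighbouring BORIS site instead. Over all chromosomes, 11 pairs of neighbouring BORIS summits lay within 10 kb of each other: in 4 both had cohesin, in 6 only 1 did and in 1 neither did.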

How the data were processed

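The authors deposited peak lists on build hg19, and per the submitters' processing notes MACS2 2.1.1, STAR 2.5.1b, deepTools 2.2.4, Picard and SAMtools 1.3.1 were used, in roles that are not named. Calling settings, and how the 2 samples of an antibody were combined, were not given in the sources used here. Per the labels both samples name the same list. Each deposited peak carries a score (in the BORIS list 10 times −log10 q, decimals dropped), a fold enrichment ratio, a −log10 p, a −log10 q and a summit, all the authors' own values, used only to describe and rank peaks within a list.

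Intervals listed with several summits (16 BORIS, 182 SMC1) were counted once, with the summit of highest −log10 q. Overlap was at least 1 bp. Each BORIS interval was paired with the SMC1 interval it met, and distances ran from the BORIS summit to the nearest SMC1 edge. Coordinates are hg19, counted from 1. Bands came from circlize 0.4.16. The gene and promoter tables given are of another build, so no gene or sequence was assigned. The members and lists were chosen with earlier results of these data known. Sites were named by fixed rules: the 10 highest by BORIS and by SMC1 −log10 q, the 10 highest without SMC1, and the 5 most extreme summit distances and gaps at each end. Bands, and the splits by acetylation, were added later. No test was run, since no list has replicates. Alternatives were thresholds, overlap rules, summit choices and the TC-32 SMC1 list. Python 3.11.15 was used with scipy 1.17.1, pandas 2.3.3, numpy 2.4.6 and matplotlib 3.10.9, and the code gave 0 wrong values on 400 simulated sites.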

Additional observations from a re-analysis of the deposited data

How the results depend on the processing

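No paired analysis was possible because both replicates of an antibody point to a single list, and for the same reason no replicate could be left out. Alternatives gave 74 values, of which 64 fell inside the reported value's 95% interval, 9 moved outside it and 1 reversed in sign. A −log10 q of at least 5 in both lists gave 59.2% of BORIS sites at SMC1 and 1.59% of SMC1 peaks with BORIS, and in the BORIS list alone 1.58%. The TC-32 SMC1 list gave 74.0% and 1.20%, and at its 395 sites a rank rho of -0.144 and a fold rho of -0.0738. That fold rho was opposite in sign to the 0.188 within TC-71, with an interval that includes 0, and the cause was not tested. Measured to the centre of the SMC1 interval, 85.4% of summits were within 50 bp, against 90.6% to the summit. Narrower windows give lower shares by construction, 63.7% within 20 bp and 3.65% of sites without SMC1 within 500 bp. The median summit distance stayed between 15 and 17 bp in all 9 alternatives run for it. Peak lists hide what lies under their thresholds, which limits every statement on missing cohesin.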
